A study of Homo sapiens with 12 samples.

Results

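Interferon-stimulated genes are the genes that cells switch on when interferon, or a foreign nucleic acid that is sensed inside the cell, signals the presence of a virus. A set of 44 genes under this name was chosen by gene symbol, and it includes factors that act in this signalling, such as IRF3. For each gene 1 probe set was taken (the one with the highest mean over the arrays). Each was followed in HK-2 cells kept with the compound labelled Nnm. Of the 44 genes, 43 had a probe set that the platform annotation assigns to them alone, 32 were bright enough to test (a log2 value above 4 on at least 3 arrays) and 11 were not. STAT2 was not analysed here. The array held 54675 probe sets, and 10907 genes were tested in all.

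HK-2 is an immortalised line made from the epithelium of the human kidney proximal tubule, the segment that takes back most of the filtrate and meets many drugs first. Cultures near confluence received a low dose of Nnm or the vehicle alone, and RNA was taken at 24 h or at 48 h. Each treatment and time formed a group of 3 arrays labelled as biological replicates, so precision is limited by the 12 arrays. Neither the dose as a concentration nor the identity of Nnm was used here beyond the label. All groups share the medium, which held epidermal growth factor, hydrocortisone, insulin, transferrin and selenite, and the labels name no interferon in any group.

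Expression was given as log2 values, on which a difference of 1 is a 2-fold change. All 5 epithelial markers looked at (KRT8, KRT18, KRT19, EPCAM and CDH1) were well above the filter, at 6.33 to 13.5. Of 7 proximal tubule markers with a probe set, SLC3A1 and DPP4 passed the filter and the other 5 did not, ANPEP, the brush border aminopeptidase, among them. DPP4, a protease of the same brush border, rose with Nnm by 0.77 at 24 h and 1.19 at 48 h (limma, adjusted p = 0.022 and 0.0066). SLC3A1 changed by -0.22 and 0.58 (adjusted p = 0.74 and 0.37). KRT8 fell by 0.63 over both times (adjusted p = 0.039). KRT18, KRT19, EPCAM and CDH1 changed by -0.36, 0.04, 0.07 and -0.29, none past the threshold (adjusted p = 0.059, 0.92, 0.51 and 0.29). With the replicate block KRT18 and CDH1 passed (adjusted p = 0.0028 and 0.030). All 5 leukocyte markers stayed at 1.78 to 3.15 on the 12 arrays. Of 4 markers of plasmacytoid dendritic cells, professional makers of interferon, LILRA4 and TCF4 passed the filter, neither changed past the threshold, and CLEC4C and IL3RA did not pass the filter. Among 6 fibroblast markers COL1A1, DCN and LUM passed the filter, and COL1A1 fell by 0.53 at 48 h (adjusted p = 0.049), where LUM changed by 0.47 and DCN by 0.22 (adjusted p = 0.069 and 0.51; 0.045 for LUM with the replicate block), while the mean of the 6 at that time lay at 6.37 to 6.46 with Nnm and 6.37 to 6.48 in controls. The part of these markers in the results was not tested. In a principal component analysis the first axis (50.3% of the variance) put the control arrays at 18.6 to 34.4, Nnm replicates 1 and 3 at -31.2 to -43.2, and the Nnm arrays of replicate 2 near the middle, at -1.55 at 24 h and -3.28 at 48 h.

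In the textbook response, RIGI and IFIH1 bind viral RNA and signal through the factors IRF3 and IRF7 to the interferon genes. Secreted type I or type III interferon binds its receptor and activates a complex whose DNA-binding subunit is IRF9, and this complex recognises the interferon-stimulated response element (ISRE) in the promoters of its targets. Interferon gamma acts through a different element, the gamma-activated site (GAS), and IRF1 is a well-known target of that branch.

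The promoters of the members carry the letters of these elements in a larger share than those of all genes. Windows from 250 bases before to 50 bases after each annotated start were available for 34 members and for 27305 genes in all (RefSeq, GRCh38.p14). The ISRE core, searched on both strands as GAAA, any 2 bases and GAAA again, was found in 22 of the 34 members (64.7%) and in 4.38% of all genes. The GAS core, TTCNNNGAA, which reads the same on both strands, was found in 13 members (38.2%) and in 9.38% of all genes. The members IFIT2, OASL, OAS2, IRF3, IRF7, IFITM2, DHX58, MX2, TRIM22 and USP18 had no window in the table used.

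The stretches printed next are the 180 bases before the start of 8 members, read toward the gene, with the ISRE and GAS core letters in capitals. IFIT1, DDX60 and PARP14 are shown as genes that rose with Nnm and carry the ISRE letters. OAS1 and IRF1 are shown as genes that rose and matched the GAS core but not the ISRE core as searched. ISG15 and IFI27 are genes with ISRE letters whose level did not pass or was too low to test. IFI35 is the member that fell. The search fixes the gap at 2 bases. GAAA units closer together, as near the end of the OAS1 and IFI35 stretches, are therefore not marked as ISRE cores.
IFIT1, chr10:89392443-89392622, plus strand: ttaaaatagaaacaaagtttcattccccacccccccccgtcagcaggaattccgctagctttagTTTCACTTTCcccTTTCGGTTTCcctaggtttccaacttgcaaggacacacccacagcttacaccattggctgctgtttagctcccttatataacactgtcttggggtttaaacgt
DDX60, chr4:168318753-168318932, minus strand: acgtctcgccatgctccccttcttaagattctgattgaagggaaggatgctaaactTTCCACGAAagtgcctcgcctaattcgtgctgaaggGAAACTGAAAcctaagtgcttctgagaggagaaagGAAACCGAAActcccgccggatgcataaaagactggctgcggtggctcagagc
PARP14, chr3:122680659-122680838, plus strand: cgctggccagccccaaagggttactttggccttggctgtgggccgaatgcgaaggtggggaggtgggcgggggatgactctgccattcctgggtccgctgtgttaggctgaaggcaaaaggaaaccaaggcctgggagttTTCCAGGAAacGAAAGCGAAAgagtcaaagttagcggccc
OAS1, chr12:112906782-112906961, plus strand: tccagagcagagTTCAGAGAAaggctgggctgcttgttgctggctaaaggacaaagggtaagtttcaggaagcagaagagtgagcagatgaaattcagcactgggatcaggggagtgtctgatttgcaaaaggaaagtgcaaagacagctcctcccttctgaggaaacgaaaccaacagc
IRF1, chr5:132490774-132490953, minus strand: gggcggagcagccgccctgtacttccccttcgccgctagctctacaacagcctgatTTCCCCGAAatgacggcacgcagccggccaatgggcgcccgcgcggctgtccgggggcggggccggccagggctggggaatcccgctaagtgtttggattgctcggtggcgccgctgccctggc
ISG15, chr1:1013317-1013496, plus strand: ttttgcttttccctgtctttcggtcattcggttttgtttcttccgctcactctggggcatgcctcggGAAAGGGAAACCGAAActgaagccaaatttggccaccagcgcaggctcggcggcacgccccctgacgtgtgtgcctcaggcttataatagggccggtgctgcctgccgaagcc
IFI27, chr14:94110556-94110735, plus strand: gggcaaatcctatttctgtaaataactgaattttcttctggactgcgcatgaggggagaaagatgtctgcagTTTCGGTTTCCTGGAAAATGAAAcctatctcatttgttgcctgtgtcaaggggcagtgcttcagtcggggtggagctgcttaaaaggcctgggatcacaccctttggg
IFI35, chr17:43006604-43006783, plus strand: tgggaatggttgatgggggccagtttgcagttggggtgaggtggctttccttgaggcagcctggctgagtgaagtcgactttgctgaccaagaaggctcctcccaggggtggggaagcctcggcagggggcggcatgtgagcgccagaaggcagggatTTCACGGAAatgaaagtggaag

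Counting back from -1, the base before the start, the 2 ISRE cores of IFIT1 begin at -116 and -103, both on the opposite strand, where GAAA reads as TTTC. DDX60 holds ISRE cores from -88 and -53 and 1 GAS core. In PARP14 a GAS core and an ISRE core stand beside each other, from -40 and -29. ISG15 holds a pair of overlapping ISRE cores. A match is a description of letters, not a measured binding site.

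With Nnm the members as a list lay above control at both times. The median change of the 32 tested members was 0.41 at 24 h and 0.39 at 48 h, against 0.01 and 0.02 for all genes tested. At 24 h 26 of the 32 changes were above 0, against 51.3% of all genes. At 48 h 31 of 32 were above 0, against 52.1% of all genes, and IFI35 was the exception. These values describe the tested members and say nothing of the dim ones. In RNA from whole cultures, more RNA per cell and more cells that express a gene cannot be told apart.

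Of the 32 members, 7 rose at 24 h and 0 fell in limma's test over all 12 arrays at an adjusted p under 0.05. Rises made up 10.6% of all genes tested and falls 8.85%, so many genes outside the list passed as well. At 48 h, 7 members rose and 0 fell, against 8.45% and 5.34% of all genes. The members that rose at both times were PARP14, UBE2L6, DDX60, PSMB8-AS1 and IFIT2, 5 of 32, where 4.78% of all genes did. OAS1 and IFIH1 passed at 24 h alone and IFIT1 and OASL at 48 h alone. At each time 16 members had an unadjusted p under 0.05 in either direction, where 36.5% of all genes at 24 h and 32.4% at 48 h did.

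Arrays that share a replicate number deviated together, and a fit that takes this number as a block called more members. At 24 h 15 members then rose and 3 fell (IFI35, SP110 and OAS3), against 20.0% and 18.8% of all genes. At 48 h 17 rose and 0 fell, against 18.5% and 13.7% of all genes. The mean of both times, which rests on all 12 arrays, gave 17 rises and 1 fall without the block, against 20.4% and 16.9% of all genes, and 19 rises and 1 fall with it, against 28.0% and 24.6%.

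**Figure D1:**
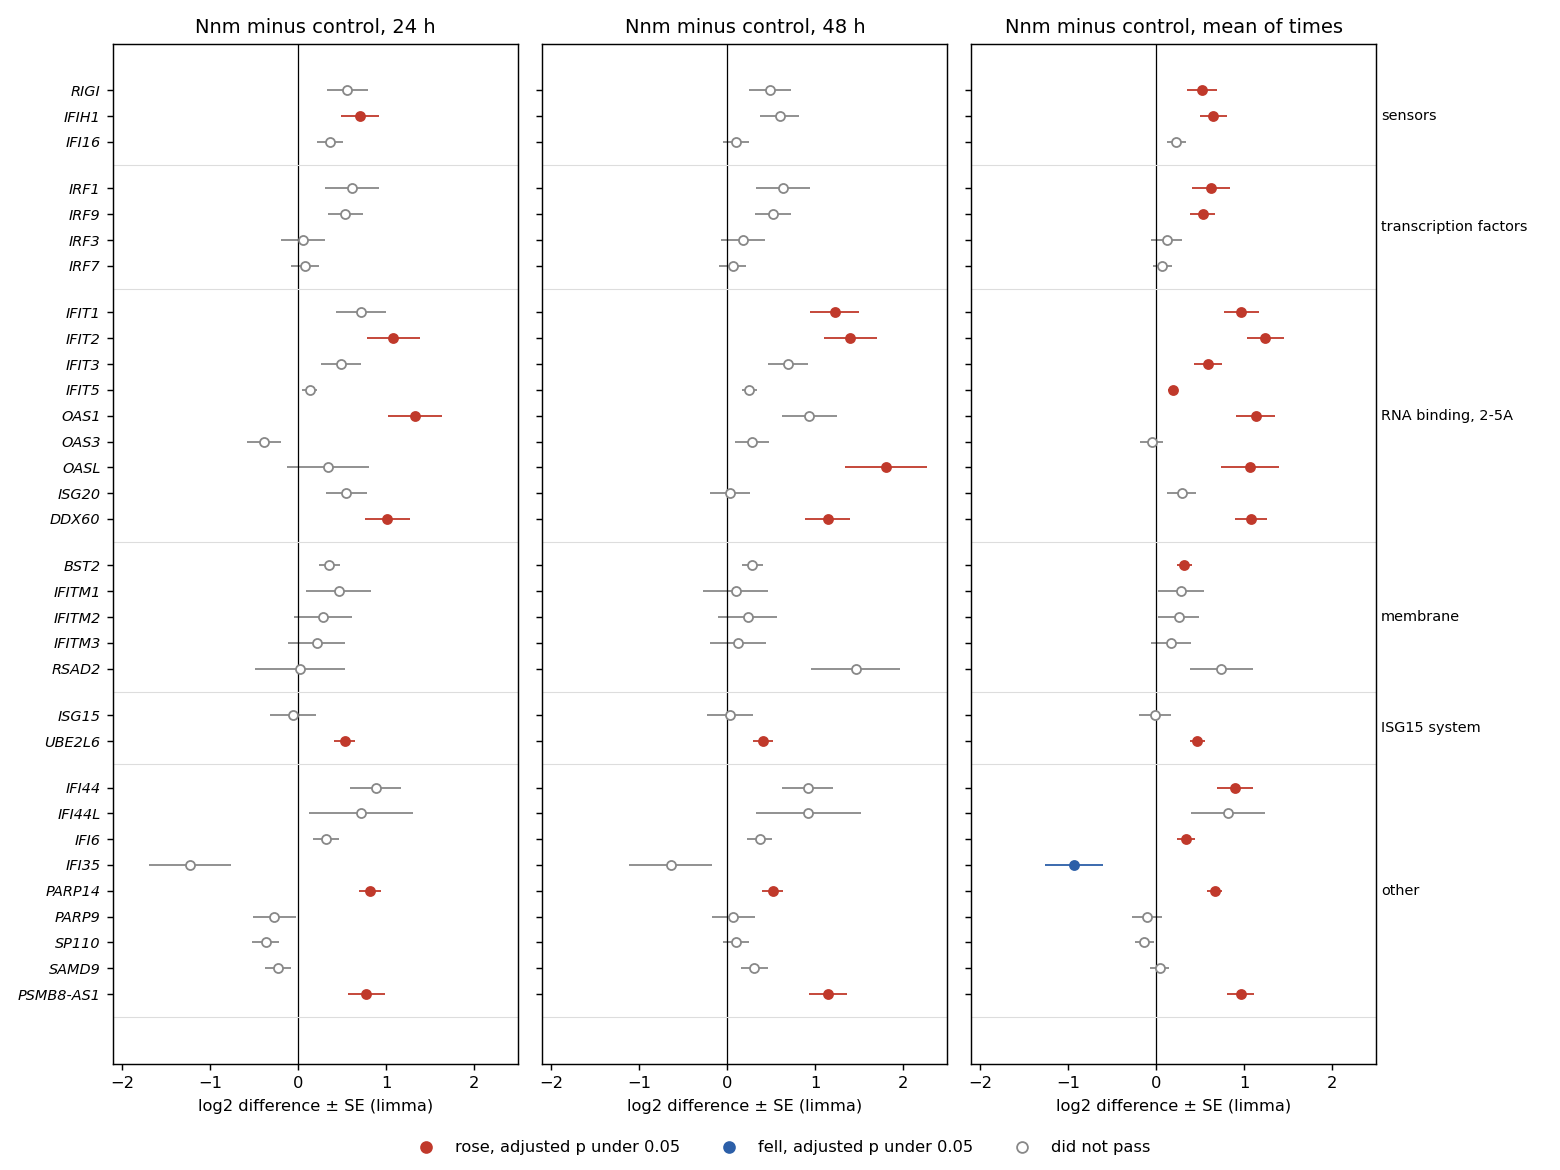
Change with Nnm (log2 difference, Nnm minus control, with limma's SE) of the 32 tested members at 24 h, at 48 h and as the mean of both, grouped by role. Filled red points rose and filled blue points fell at an adjusted p under 0.05, and open points did not pass: 7 points are red at each time, and 17 are red and 1, IFI35, is blue in the mean.

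The calls at a single time depended on single arrays. At 24 h, PARP14 alone kept its call without each array in turn. The count of members called was 1 in place of 7 without replicate 3 of either group or replicate 1 of the controls of that time, when 3.70% to 8.54% of all genes passed in either direction in place of 19.4%. It was 3 of 32 without replicate 1 of Nnm, against 5.65% of all genes, and 12 of 32 without Nnm 24 h replicate 2, against 29.8%. At 48 h none of the 7 calls was kept without each array, and the count was 1 of 32 without replicate 1 or 3 of either 48 h group, against 2.45% to 3.84% of all genes, and 10 without Nnm 48 h replicate 2, against 22.0%, in place of 13.8% with all arrays. For the mean of both times, 12 of 18 calls were kept without each array, and those of IFI35, IFI6, IFIT5, IRF1, OASL and RIGI were not.

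The largest rise at each time belonged to the RNA-binding proteins and oligoadenylate synthetases, OAS1 at 24 h and OASL at 48 h. Of 9 tested genes of this role, 3 rose at 24 h, 4 at 48 h and 7 over both times, where 10.6%, 8.45% and 20.4% of all genes rose, and the median change over both times was 0.97. The IFIT proteins bind the ends of foreign RNA and keep it from being translated. IFIT2 gave 8.77, 8.38 and 9.16 on the Nnm arrays at 24 h, in the order of replicates 1 to 3, against 7.53, 7.96 and 7.58 in the controls, and at 48 h 9.38, 8.84 and 9.66 against 7.51, 8.52 and 7.66. All Nnm arrays were above all controls of their time, and control replicate 2 was the highest control at both times. The change was 1.08 ± 0.30 (SE, adjusted p = 0.032 in limma's test) at 24 h and 1.40 ± 0.30 (adjusted p = 0.016) at 48 h.

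IFIT1 is the member of the family that holds on to viral RNA with an unmethylated cap. Its values were 9.04, 9.35 and 9.63 with Nnm at 24 h and 8.30, 9.04 and 8.54 in the controls, so Nnm replicate 1 and control replicate 2 met at the same level. At 48 h the Nnm arrays gave 9.53, 9.28 and 9.85 and the controls 7.83, 8.89 and 8.29, without overlap. The change of 0.71 ± 0.28 at 24 h did not pass (adjusted p = 0.096; 0.040 with the block), and that of 1.22 ± 0.28 at 48 h did (adjusted p = 0.022). IFIT3, a partner of IFIT1, changed by 0.48 at 24 h and 0.69 at 48 h, neither past the threshold (adjusted p = 0.15 and 0.066; 0.026 at 48 h with the block), and rose by 0.59 ± 0.16 over both times (adjusted p = 0.016). IFIT5 rose by 0.19 ± 0.06 over both times (adjusted p = 0.026), and its change of 0.25 at 48 h passed with the block alone (adjusted p = 0.065 without and 0.028 with it). As the mean of its 2 kept probe sets it changed by 0.10, which did not pass (adjusted p = 0.32).

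These 4 IFIT genes lie side by side on chromosome 10, in the order IFIT2, IFIT3, IFIT1 and IFIT5 with IFIT1B, which is no member, between IFIT3 and IFIT1. Their changes over both times were 1.24, 0.59, 0.97 and 0.19 in that order.

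OAS1 makes the short oligoadenylates that switch on the RNA-cutting enzyme RNase L. At 24 h it gave 5.17, 4.54 and 5.88 with Nnm and 3.73, 4.11 and 3.77 without, and at 48 h 5.17, 4.67 and 5.60 against 4.27, 4.31 and 4.06. The groups did not overlap at either time, and Nnm replicate 2 was the lowest Nnm array at both. OAS1 rose by 1.33 ± 0.31 at 24 h (adjusted p = 0.018). The change of 0.93 ± 0.31 at 48 h passed with the block alone (adjusted p = 0.068 without and 0.040 with it). Control replicates 1 and 3 at 24 h were below the filter level of 4, so the size of the rise at that time is uncertain. A second probe set of OAS1 was below that level on every array. OAS3, the next gene on chromosome 12 and an enzyme of the same kind, did not pass. Its values at 24 h were 6.91, 7.36 and 7.52 with Nnm and 7.51, 7.60 and 7.84 in the controls, a difference of -0.39 ± 0.19 (adjusted p = 0.17; 0.023 with the block), and at 48 h the difference was 0.28 ± 0.19 (adjusted p = 0.34). OAS2, the next gene again, was below the filter on every array, at 2.86 to 3.43.

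OASL has lost the synthetase activity and is known to aid signalling from RIGI. With Nnm it gave 5.61, 6.55 and 6.58 at 24 h, against 5.75, 6.19 and 5.79, and the groups overlapped. At 48 h it gave 7.22, 6.79 and 8.10, against 4.50, 6.28 and 5.92, without overlap, and control replicate 1 was the lowest array of all 12. The change was 0.34 ± 0.47 at 24 h (adjusted p = 0.64) and 1.80 ± 0.47 at 48 h (adjusted p = 0.031), the largest change of any tested member at that time. The difference between the times did not pass (1.47 ± 0.66, adjusted p = 0.78). A second kept probe set of OASL gave 5.35, 6.46 and 6.44 with Nnm at 24 h, against 5.04, 5.20 and 5.11, without overlap. Its change of 0.97 ± 0.43 did not pass over all probe sets (adjusted p = 0.14). The probe sets thus differ on how far OASL moved at 24 h.

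DDX60, a helicase linked to RNA sensing, was among the 5 genes that rose at both times. Nnm arrays gave 10.02, 10.34 and 10.63 at 24 h, against 9.11, 9.67 and 9.17, and 10.86, 10.47 and 10.56 at 48 h, against 9.01, 10.02 and 9.43. No control reached the lowest Nnm array of its time. The changes were 1.01 ± 0.26 (adjusted p = 0.024) and 1.14 ± 0.26 (adjusted p = 0.019). ISG20, an exonuclease that degrades RNA, changed by 0.55 ± 0.23 at 24 h and 0.03 ± 0.23 at 48 h, neither past the threshold (adjusted p = 0.11 and 0.94).

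**Figure D2:**
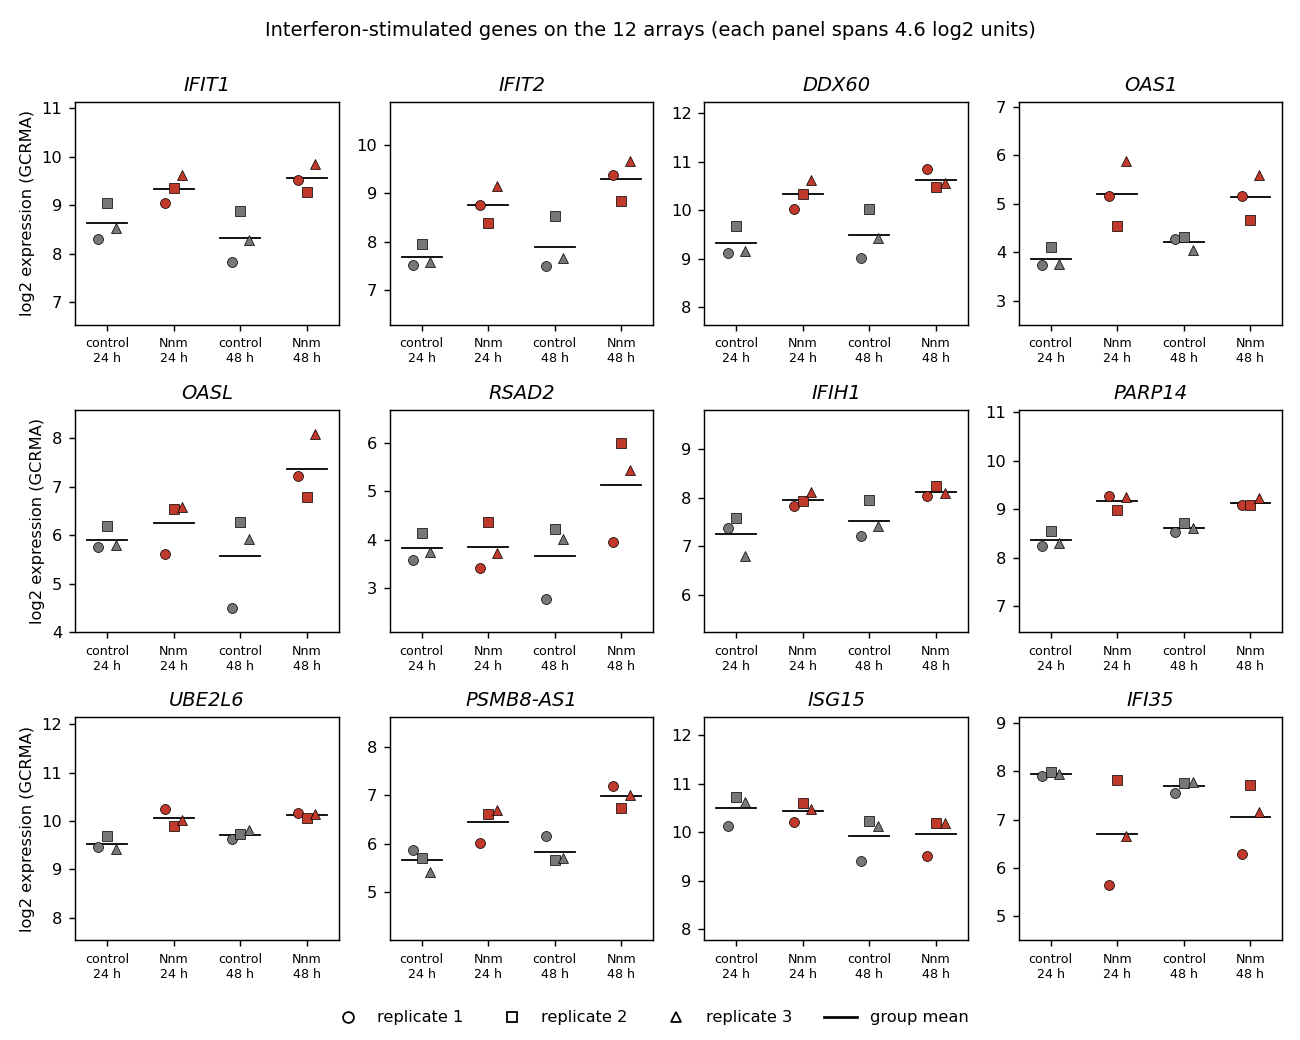
Log2 expression of 12 members on every array, with a marker for each replicate number, grey for control and red for Nnm, and a line for the group mean. In IFIT2, DDX60, OAS1, PARP14, UBE2L6, IFIH1 and PSMB8-AS1 the Nnm arrays lie above the controls at both times. For the probe sets of RSAD2 and OASL drawn here the distance opens at 48 h. A second OASL probe set, not drawn, was already apart at 24 h. The ISG15 values of Nnm and control lie close together, and IFI35 is low on Nnm replicates 1 and 3.

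Among the sensors, IFIH1 (also called MDA5), which binds long double-stranded RNA, gave 7.83, 7.93 and 8.11 with Nnm at 24 h, against 7.38, 7.59 and 6.80 in the controls. At 48 h the values were 8.03, 8.23 and 8.10, against 7.22, 7.94 and 7.42. All Nnm arrays lay above the controls of their time, and the pair of replicate 2 differed least. It rose by 0.70 ± 0.22 at 24 h (adjusted p = 0.047), and this call was lost under several settings, with adjusted p up to 0.11 without the filter. At 48 h the change was 0.60 ± 0.22 (adjusted p = 0.090; 0.039 with the block).

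RIGI, which recognises RNA with a free triphosphate end, rose by 0.52 ± 0.17 over both times (adjusted p = 0.031), with 0.56 at 24 h (adjusted p = 0.11; 0.035 with the block) and 0.48 at 48 h (adjusted p = 0.18). It was positive in all 6 pairs of arrays of the same number and time, by 0.29 to 0.70. IFI16, a sensor of DNA, changed by 0.36 ± 0.15 at 24 h and 0.10 ± 0.15 at 48 h, and neither passed (adjusted p = 0.10 and 0.69). DHX58, a further gene of the RIGI family, was below the filter, at 2.18 to 3.08.

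Of the 4 tested transcription factors none passed at a single time, and 2 rose over both, where 10.6% of all genes rose at 24 h, 8.45% at 48 h and 20.4% over both. IRF9 gave 8.37, 7.63 and 8.13 with Nnm at 24 h and 7.39, 7.56 and 7.57 in the controls, and 7.97, 7.61 and 8.11 against 7.50, 7.09 and 7.53 at 48 h. The groups did not overlap at either time, though Nnm replicate 2 stood only just above the controls. It rose by 0.53 ± 0.14 over both times (adjusted p = 0.015), and the changes of 0.53 and 0.52 at the single times passed with the block (adjusted p = 0.083 and 0.10 without, 0.021 and 0.027 with it). A probe set listed for both RNF31 and IRF9 changed by -0.29 at 24 h and 0.10 at 48 h, neither past the threshold over all probe sets (adjusted p = 0.40 and 0.81). IRF1 gave 7.36, 6.21 and 7.11 against 6.23, 6.16 and 6.45 at 24 h, and 7.31, 6.21 and 6.81 against 6.27, 6.02 and 6.15 at 48 h. Nnm replicates 1 and 3 were above all controls, and Nnm replicate 2 lay among them. It rose by 0.62 ± 0.22 over both times (adjusted p = 0.044), and by 0.93 without both Nnm replicate 2 arrays. At the single times its changes of 0.61 and 0.63 passed with the block (adjusted p = 0.17 and 0.18 without, 0.044 and 0.046 with it). A second kept probe set of IRF1 changed by 0.46 at 24 h, 0.19 at 48 h and 0.32 over both times. None of these passed over all probe sets (adjusted p = 0.12, 0.56 and 0.089). IRF3 and IRF7, the factors that act between the sensors and the interferon genes, changed by 0.12 and 0.07 over both times, and neither passed (adjusted p = 0.63 and 0.64).

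Of 5 tested membrane proteins that block entry or exit of viruses, or work beside them, none passed at a single time and 1 rose over both. Of all genes 10.6% rose at 24 h, 8.45% at 48 h and 20.4% over both, so 1 of 5 is near the share of all genes. BST2 (tetherin), which ties budding particles to the cell, gave 10.90, 11.00 and 10.82 with Nnm at 24 h against 10.59, 10.75 and 10.32, and 10.96, 11.07 and 11.04 at 48 h against 10.80, 10.79 and 10.62. The Nnm arrays were above all controls by a small margin, and it rose by 0.32 ± 0.08 over both times (adjusted p = 0.015). Its changes of 0.35 and 0.29 at the single times passed with the block (adjusted p = 0.062 and 0.13 without, 0.018 and 0.043 with it). IFITM1, IFITM2 and IFITM3, neighbouring genes whose proteins stop fusion of viral envelopes, changed by 0.28, 0.26 and 0.17 over both times, and none passed (adjusted p = 0.43, 0.42 and 0.60). At 24 h the change of IFITM1 was 0.46 (adjusted p = 0.39; 0.045 with the block). Their probe sets can share sequence between the copies, and a further probe set listed for both IFITM2 and IFITM1 changed by 0.44 at 24 h and -0.02 at 48 h (adjusted p = 0.48 and 0.98).

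RSAD2 (viperin), an enzyme that makes a chain-ending nucleotide, had close values in Nnm and control at 24 h and more distant ones at 48 h. Its values at 24 h were 3.43, 4.37 and 3.74 with Nnm and 3.59, 4.14 and 3.74 in the controls, and at 48 h 3.96, 5.99 and 5.44 against 2.79, 4.22 and 4.02. Replicate 1 was the lowest of its group in all 4 groups, so the Nnm and control groups overlapped while each pair of the same number differed by 1.18 to 1.77. The change at 48 h was 1.46 ± 0.51, which did not pass without the block (adjusted p = 0.076) and passed with it (adjusted p = 0.0062), and the difference between the times was 1.44 ± 0.72 (adjusted p = 0.80). Over both times RSAD2 changed by 0.74 ± 0.36 (adjusted p = 0.13 without the block and 0.0097 with it). Its probe set was above the filter level on 6 of the 12 arrays. Both arrays of replicate 1 at 48 h were below that level, so the sizes of these changes are uncertain.

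In the ISG15 system, a small ubiquitin-like protein is joined to others. ISG15 itself gave 10.20, 10.61 and 10.47 with Nnm at 24 h against 10.13, 10.73 and 10.62, and 9.50, 10.18 and 10.19 at 48 h against 9.41, 10.23 and 10.12. The values of each pair were nearly the same, and the changes were -0.06 ± 0.26 and 0.04 ± 0.26 (adjusted p = 0.88 and 0.94). UBE2L6, the enzyme that carries ISG15 to its targets, rose at both times. It gave 10.25, 9.89 and 10.02 against 9.46, 9.68 and 9.43 at 24 h, and 10.18, 10.07 and 10.14 against 9.63, 9.72 and 9.81 at 48 h, with no overlap. The rises were 0.53 ± 0.12 (adjusted p = 0.016) and 0.41 ± 0.12 (adjusted p = 0.045).

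USP18, the protease that takes ISG15 off again, was too dim to test with the others. It gave 3.93, 4.01 and 4.37 with Nnm at 24 h against 2.81, 3.52 and 3.42, above all controls, and at 48 h 3.62, 3.53 and 3.73 against 3.62, 3.62 and 3.78. All controls and all but 2 of the Nnm arrays were below the filter level, so the size of the difference is uncertain. In a fit without the filter it was 0.85 at 24 h and -0.05 at 48 h.

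PARP14, an ADP-ribosyltransferase, had the smallest adjusted p of the members at 24 h. It gave 9.28, 8.98 and 9.27 with Nnm against 8.24, 8.55 and 8.30 at 24 h, and 9.09, 9.09 and 9.23 against 8.53, 8.72 and 8.62 at 48 h. Replicates were close in every group and the groups did not overlap. The rises were 0.81 ± 0.12 (adjusted p = 0.0059) and 0.51 ± 0.12 (adjusted p = 0.024). Its relative PARP9 changed by -0.27 at 24 h and 0.07 at 48 h, and neither passed (adjusted p = 0.45 and 0.88).

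PSMB8-AS1 is an RNA gene that overlaps PSMB8 and TAP1 on chromosome 6, both genes of antigen presentation, so its level is uncertain. Its kept probe set gave 6.01, 6.62 and 6.71 with Nnm against 5.88, 5.70 and 5.43 at 24 h, and 7.20, 6.75 and 7.00 against 6.16, 5.66 and 5.70 at 48 h. It lay above the controls at both times, and here replicate 1 rather than replicate 2 gave the smallest difference at 24 h. The rises were 0.78 ± 0.21 (adjusted p = 0.031) and 1.15 ± 0.21 (adjusted p = 0.012), and the second probe set of the gene stayed below the filter. PSMB8 changed by -0.10 at 24 h and -0.29 at 48 h, neither past the threshold without the block (adjusted p = 0.45 and 0.057). With the block its change at 48 h passed (adjusted p = 0.020). Over both times PSMB8 fell by 0.20 (adjusted p = 0.035), while TAP1 rose by 0.61 (adjusted p = 0.026).

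IFI44 and IFI44L, neighbours on chromosome 1 whose roles are less well known, both lay higher with Nnm. IFI44 gave 7.69, 7.49 and 8.03 against 6.79, 7.20 and 6.58 at 24 h, and 8.08, 7.85 and 8.02 against 6.63, 7.83 and 6.75 at 48 h, where control replicate 2 almost reached the Nnm arrays. It rose by 0.90 ± 0.20 over both times (adjusted p = 0.0073), and its changes of 0.88 and 0.91 at the single times passed with the block (adjusted p = 0.054 and 0.059 without, 0.038 and 0.039 with it). IFI44L changed by 0.71 at 24 h and 0.92 at 48 h, which passed with the block alone (adjusted p = 0.41 and 0.31 without, 0.033 and 0.016 with it), as did the mean of 0.82 (adjusted p = 0.15 and 0.0028). Its level was lowest in replicate 3 in all 4 groups. IFI6, a small protein of inner membranes, rose by 0.34 ± 0.10 over both times (adjusted p = 0.025).

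IFI35, a leucine zipper protein that binds NMI, was the one member that fell. With Nnm it gave 5.65, 7.82 and 6.65 at 24 h against 7.90, 7.98 and 7.93, and 6.29, 7.72 and 7.16 at 48 h against 7.55, 7.76 and 7.78. Control arrays were tight, replicates 1 and 3 with Nnm were far lower, and Nnm replicate 2 was at the control level. The changes were -1.23 ± 0.47 at 24 h (adjusted p = 0.085; 0.022 with the block) and -0.64 ± 0.47 at 48 h (adjusted p = 0.37), and it fell by 0.94 ± 0.33 over both times (adjusted p = 0.046). That call was lost on leaving out any 1 array other than the Nnm replicate 2 arrays, with adjusted p up to 0.11.

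SP110, a nuclear body protein, changed by -0.37 ± 0.15 at 24 h (adjusted p = 0.11; 0.027 with the block) and 0.10 ± 0.15 at 48 h. SAMD9, a large cytoplasmic antiviral protein, changed by -0.23 ± 0.15 and 0.31 ± 0.15 (adjusted p = 0.29 and 0.19).

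The members too dim to test include several textbook markers of an interferon response. CXCL10 and CXCL11, chemokines that draw T cells, lay at 2.07 to 2.09 and 2.56 to 2.65 over the 12 arrays. IFI27 lay at 2.03 to 2.05 and MX2 at 1.90 to 1.92. MX1, the dynamin-like GTPase of the MX pair, lay at 2.48 to 2.56 on 11 arrays and at 3.55 on Nnm 24 h replicate 3. XAF1, SAMD9L and TRIM22 lay at 2.32 to 2.80. None of these passed at either time in a fit without the filter, and at these levels the array can show neither a low level nor its absence.

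Paired by replicate number, the direction held in most pairs. The difference between Nnm and the control array of the same number and time was positive in all 6 pairs for 18 of 32 members, against 23.1% of all genes, and negative in all 6 for IFI35 alone, 1 of 32, against 20.4% of all genes. Median differences over the members were 0.27, 0.22 and 0.54 in pairs 1 to 3 at 24 h and 0.51, 0.29 and 0.41 at 48 h. Pair 2 gave the smallest of the 3 differences for 14 of the 17 members that rose over both times at 24 h and for 13 of 17 at 48 h. The SD of the differences over all genes was also smaller in pair 2, at 0.37 and 0.36, than in pairs 1 and 3, at 0.61 to 0.70. Without both Nnm replicate 2 arrays, 11 members rose and 1 fell at 24 h and 12 rose and 1 fell at 48 h, when 34.0% and 28.9% of all genes passed in either direction.

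**Figure D3:**
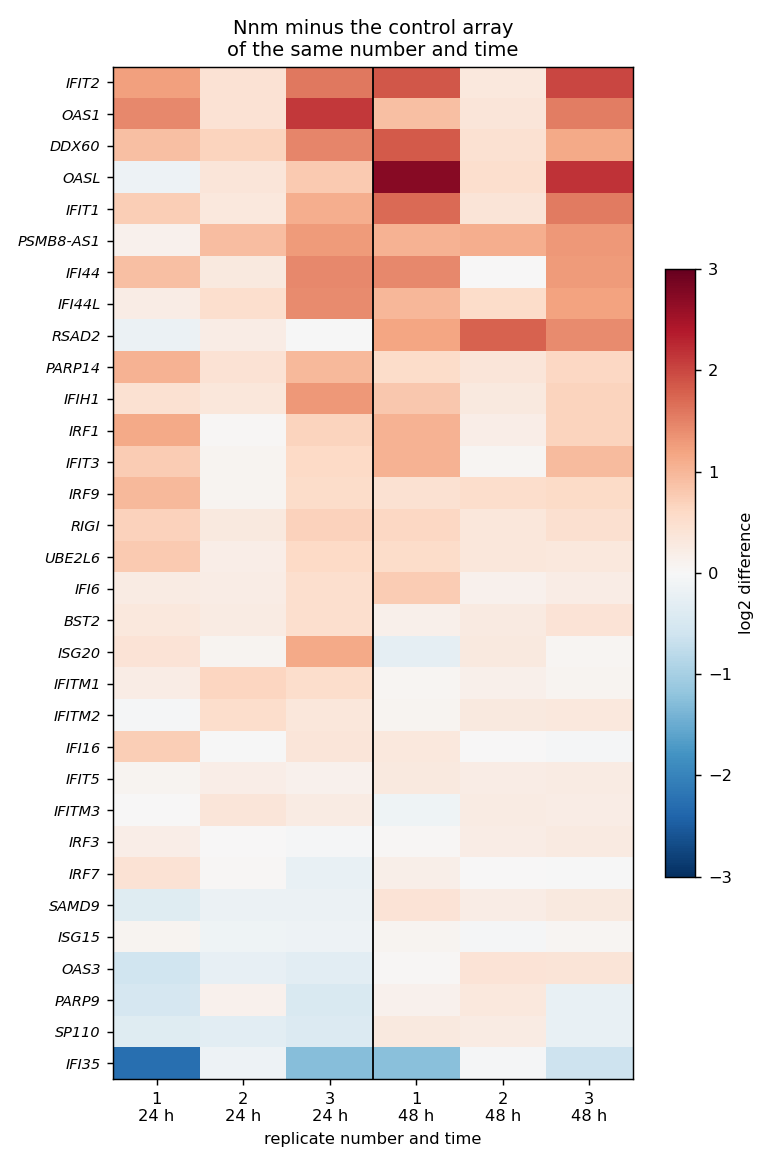
Log2 difference between each Nnm array and the control array of the same replicate number and time, for the 32 tested members in order of their mean change. Red is higher and blue lower with Nnm: the columns of replicate 2 are pale for IFIT2, OAS1, IFIT1, IFI44, IRF1 and IFI35, and RSAD2 and OASL are strongest in the 48 h columns.

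Arrays counted by overlap gave a similar picture. All 3 Nnm values were above all 3 control values for 12 members at 24 h, against 21.1% of all genes, and for 16 at 48 h, against 20.3%. They were below for IFI35, SAMD9 and SP110 at 24 h, 3 members, against 18.7% of all genes, and for 0 at 48 h, against 15.8%. The same 11 members were above at both times, against 12.4% of all genes.

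**Figure D4:**
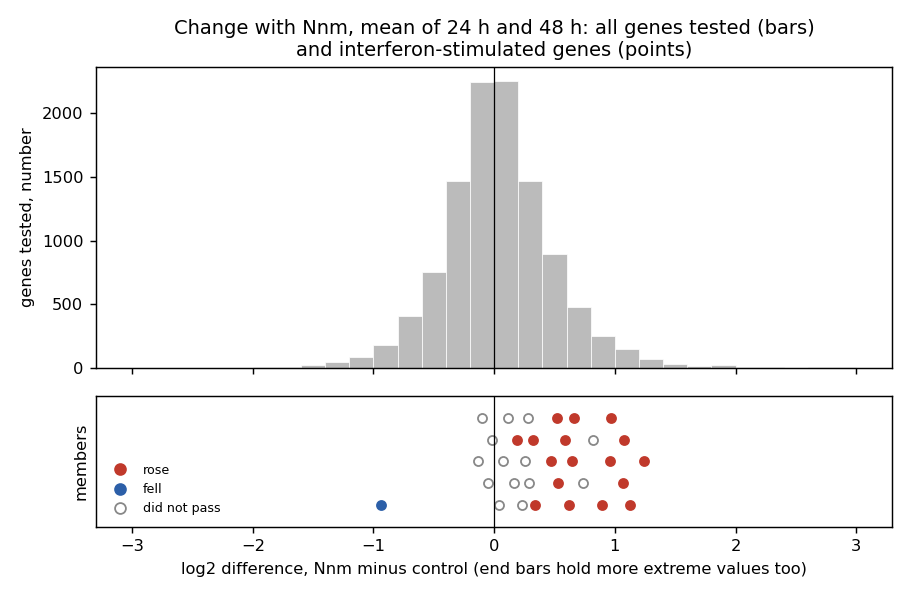
Mean change over both times (log2 difference, Nnm minus control) of all 10907 genes tested, as bars 0.2 wide, and of the 32 members, as points spread in height for legibility. The members have a median of 0.40 and reach from -0.94 to 1.24, and the bars are centred at 0.02.

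Between the times no member passed in limma's test without the block. For the change of the Nnm effect from 24 h to 48 h, 0 members and 0% of all genes passed, with 3 members (OAS3, SAMD9 and OASL) and 6.40% of all genes at an unadjusted p under 0.05. Between control 48 h and control 24 h, 0 members passed, against 0.128% of all genes, with 1 member and 15.7% of all genes at an unadjusted p under 0.05. With the block 4 of 32 did, against 8.47% of all genes: IFITM1 was higher at 48 h by 0.76, and IRF3, ISG15 and OAS3 were lower by values of -0.46, -0.57 and -0.60. Between Nnm 48 h and Nnm 24 h, 0 members passed, against 0.119% of all genes, with 4 of 32 and 10.8% of all genes at an unadjusted p under 0.05. RSAD2 alone passed with the block (1.29, adjusted p = 0.045), against 2.29% of all genes.

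Several probe sets of a gene gave the same direction for 9 of 12 genes at 24 h and 10 of 12 at 48 h. The exceptions were IFIT5, PARP9 and SAMD9 at 24 h and SAMD9 and SP110 at 48 h. The second probe set of OASL changed by 2.05 ± 0.43 at 48 h and passed over all probe sets (adjusted p = 0.020), and by 0.97 ± 0.43 at 24 h, which did not pass (adjusted p = 0.14). The second probe sets of RSAD2 and ISG20 passed the filter through 3 Nnm arrays each, with every control below it, so they are given as values alone. Both genes are in the counts of agreement above. A filter passed in this way favours a positive direction, so their agreement carries no weight. That of RSAD2 gave 4.10, 4.23 and 6.13 with Nnm at 48 h against 2.43, 3.11 and 2.74, and that of ISG20 gave 4.43 and 5.35 on Nnm replicates 1 and 3 at 24 h and a value just under the filter on replicate 2, against 3.47, 3.49 and 3.59. The probe sets of PARP9 disagreed, at -0.10 and 0.56 over both times, and the latter passed (adjusted p = 0.028).

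**Figure D5:**
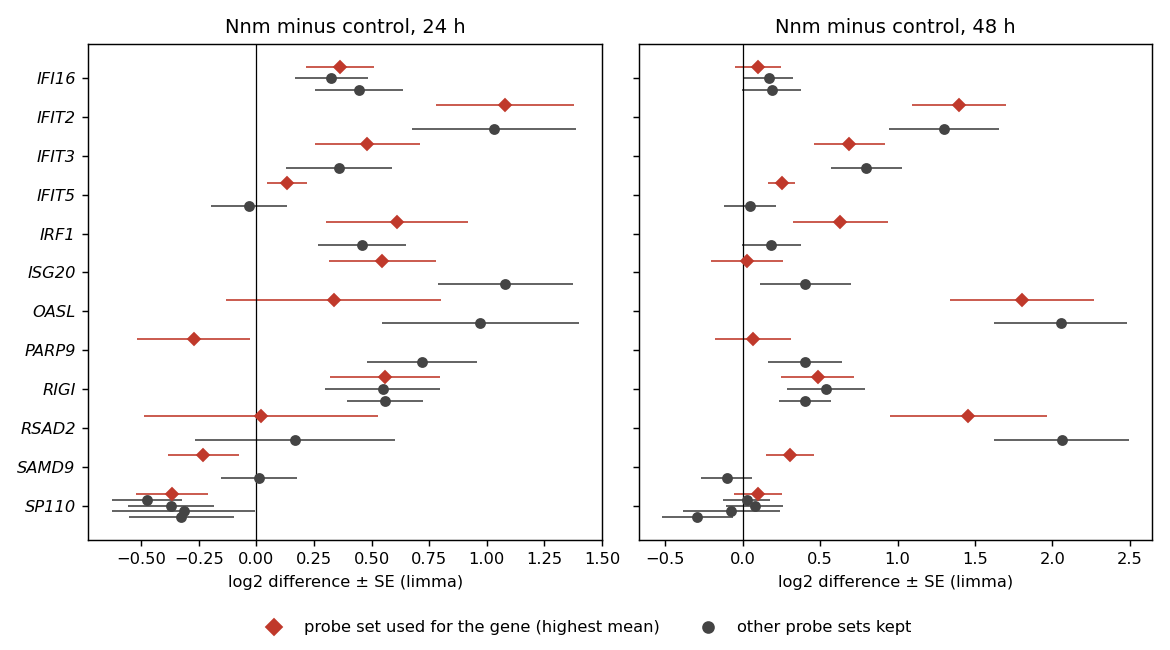
Change with Nnm (log2 difference ± SE) of each kept probe set of the 12 members that have several, at 24 h and at 48 h. Red diamonds are the probe sets used for the gene and dark points the others: those of IFIT2, IFIT3 and RIGI lie close together, and those of PARP9 lie on opposite sides of 0 at 24 h. The dark points of RSAD2 and ISG20 are from probe sets that passed the filter through Nnm arrays alone.

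The promoter letters were found in members that rose and in members that did not. ISRE cores stood before 10 of the 15 members with a window that rose over both times (66.7%) and before 9 of the 12 tested members that did not rise (75.0%). GAS cores were found in the windows of 7 of 15 (46.7%) and 3 of 12 (25.0%), and the GAS core of PSMB8-AS1, a member that rose, lay after the start. Among all tested genes with a window, those with an ISRE core had a median change over both times of 0.08 and those without of 0.01, while among the tested members those with one had the lower median, 0.34 against 0.50.

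Genes upstream of the members were followed through lists written from the pathway. None of the interferon genes with a probe set passed the filter, and the 5 genes of the ligand and receptor list that did were all receptor chains. IL10RB, a chain of the type III receptor, rose by 0.55 ± 0.16 at 24 h (adjusted p = 0.035) and 0.67 ± 0.16 at 48 h (adjusted p = 0.022). IFNLR1, the other chain of that receptor in the list, was not among the 5. IFNAR1 of the type I receptor rose by 0.72 ± 0.15 at 48 h (adjusted p = 0.014), and IFNAR2 rose by 0.39 ± 0.11 over both times (adjusted p = 0.020).

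Of 24 signalling genes, 3 rose and 1 fell at 24 h, and 0 rose and 1 fell at 48 h, where 10.6% and 8.85% of all genes rose and fell at 24 h and 8.45% and 5.34% at 48 h. TLR3, the receptor for double-stranded RNA in endosomes, rose by 1.65 ± 0.35 at 24 h (adjusted p = 0.014). JAK2, also called at 24 h and a kinase of the gamma receptor, had control means of 3.44 and 3.57, below the filter, against 4.46 and 4.01 with Nnm, so it was tested through its Nnm arrays alone and no change is given. PTPN2, a phosphatase that damps the pathway, rose by 0.68 ± 0.14 (adjusted p = 0.013). TYK2, a kinase of the type I receptor, fell by 0.70 ± 0.21 at 24 h (adjusted p = 0.042), and the phosphatase PTPN11 fell by 0.46 ± 0.11 at 48 h (adjusted p = 0.022). The median change of this list was 0.03 at 24 h and 0.14 at 48 h.

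Of 32 further interferon-induced genes, 6 rose and 2 fell at 24 h and 9 rose and 1 fell at 48 h, against the same shares of all genes, with medians of 0.15 and 0.26. GBP2, a GTPase of cell-autonomous defence, rose by 1.68 ± 0.35 at 24 h (adjusted p = 0.012) and 1.20 ± 0.35 at 48 h (adjusted p = 0.045). HERC5, the ligase that attaches ISG15, rose by 0.95 ± 0.22 (adjusted p = 0.017) and 1.08 ± 0.22 (adjusted p = 0.014). TNFSF10, the death ligand TRAIL, rose by 0.75 ± 0.14 (adjusted p = 0.0086) and 0.98 ± 0.14 (adjusted p = 0.0047). PLSCR1, a scramblase of membrane lipids, rose by 0.65 ± 0.17 (adjusted p = 0.024) and 0.83 ± 0.17 (adjusted p = 0.014). PNPT1, an RNA-degrading enzyme of mitochondria, fell by 1.06 ± 0.18 (adjusted p = 0.0072) and 0.89 ± 0.18 (adjusted p = 0.014).

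Of 15 antigen presentation genes, 1 rose and 1 fell at 24 h and 1 rose and 0 fell at 48 h, which as shares of the list are below those of all genes, with medians of 0.18 and 0.16. PSMB9, a subunit of the immunoproteasome, rose by 0.95 ± 0.22 at 24 h (adjusted p = 0.017) and 1.09 ± 0.22 at 48 h (adjusted p = 0.014). PSMB10, another subunit, fell by 0.57 ± 0.13 at 24 h (adjusted p = 0.016) and changed by 0.12 ± 0.13 at 48 h (adjusted p = 0.55).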

How the data were processed

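RNA of 12 HK-2 cultures was labelled with biotin for Affymetrix arrays, per the labels. The log2 expression values were deposited by the authors, who used GCRMA, per the submitters' processing notes; it corrects background by probe sequence and normalises across arrays. The version of GCRMA and the arrays it was run on together are not given in the sources used here. That the scale is log2 follows from the range of the values.

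Of 54675 probe sets, 62 were controls and 41097 had 1 gene symbol in the platform annotation. A probe set was kept if 3 or more arrays exceeded a log2 of 4 (19832 probe sets), and the kept probe set with the highest mean stood for its gene, 10907 in all. The test was limma's (version 3.58.1 under R 4.3.3), with lmFit and eBayes on 4 group means over 12 arrays, two-sided, Benjamini-Hochberg over all genes and a threshold of 0.05, and each SE is limma's. The fit was tested on simulated data with independent arrays. That test does not cover arrays of the same replicate number deviating together. Every member is named, and from other lists up to 4 genes per time that passed, by smallest p. The members and lists were chosen with earlier results of these data known.

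In the residuals of the fit, arrays that share a replicate number correlated at 0.318 to 0.696 (0.34 to 0.512 within a time), and arrays of different numbers in other groups at -0.587 to 0.119. The numbers therefore pair the arrays, and a replicate block was an alternative. Other alternatives were the filter, the mean of probe sets, quantile normalisation, median centring, trend and robust settings, array weights, fewer groups in the fit, and arrays left out. Promoter letters were searched with Python 3.11.15 in RefSeq windows of GRCh38.p14, and matplotlib 3.10.9 drew the plots.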

Additional observations from a re-analysis of the deposited data

Results flagged for a closer look

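USP18 was below the filter on dim genes and so outside the main comparisons, and its 3 Nnm arrays at 24 h lay above the 3 controls, by 0.85 on the log2 scale, with all controls and 1 of the Nnm arrays at that time below the filter level, so the size is uncertain. OAS3 and SAMD9 each had all 3 pairs of arrays negative at 24 h and all 3 positive at 48 h. The Nnm effect at 48 h minus that at 24 h was 0.67 for OAS3 and 0.54 for SAMD9, and neither difference passed in limma's test (adjusted p = 0.754 for both). Groups of 3 arrays were not tested for outliers.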

How the results depend on the processing

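Each count of members called is followed by the share of all genes called in the same fit. At 24 h, 7 of 32 (19.4%) became 3 of 43 with no filter (6.43%), 3 with only the groups compared in the fit (7.67%), 16 with array weights (44.6%), 18 with the replicate block (38.8%) and 12 without both Nnm replicate 2 arrays (34.0%). The 3 called with no filter were PARP14, UBE2L6 and the dim USP18, which is not among the 7. At 48 h, 7 (13.8%) became 4 of 43 with no filter (4.45%), 1 with only the groups compared (4.71%), 14 with array weights (31.8%), 17 with the replicate block (32.2%) and 13 without both Nnm replicate 2 arrays (28.9%). In the mean of both times 18 (37.3%) became 14 of 43 with no filter (16.7%) and 20 with array weights (53.0%) or the replicate block (52.6%). The other settings lay between these counts. The count thus stayed within 1.5 times, while the share of all genes ran from 16.7% to 53.0%. Of the 18 calls, 13 were kept under each of these settings. With each array left out in turn the counts were 1 (3.70% to 8.54%) to 12 (29.8%) at 24 h and 1 (2.45% to 3.84%) to 10 (22.0%) at 48 h. In the mean they were 12 (29.1%) to 19 (42.1%). Between the control groups the replicate block called 4 (8.47%), and between the Nnm groups it called 1 (2.29%) and array weights called 2 (9.12%). The block value is given beside each member whose call it changed, and it changed no other call of a member against control.

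Under these settings the sign turned only for members that had not passed in that comparison. With the mean of the kept probe sets the change was PARP9 0.22 at 24 h, SP110 -0.032 at 48 h, PARP9 0.23, SAMD9 -0.0037 over both times. With quantile normalisation the change was RSAD2 -0.014 at 24 h, ISG20 -0.017 at 48 h. With median centring the change was ISG15 -0.012, ISG20 -0.017 at 48 h. With array weights the change was IFITM1 -0.094, IFITM2 -0.22, IFITM3 -0.29, ISG15 0.016, RSAD2 -0.049 at 24 h, IFITM1 -0.055, PARP9 -0.082 at 48 h, IFITM1 -0.074, IFITM2 -0.035, IFITM3 -0.12, ISG15 0.038, OAS3 0.10 over both times. Without both Nnm replicate 2 arrays the change was IFITM2 -0.021, IFITM3 -0.029, RSAD2 -0.24 at 24 h, IFITM1 -0.017, ISG15 -0.078, ISG20 -0.12, PARP9 -0.16 at 48 h, IFITM3 -0.0019 over both times. With 1 array left out, the ranges were IFITM2 -0.056 to 0.58, IFITM3 -0.11 to 0.51, IRF3 -0.081 to 0.22, IRF7 -0.044 to 0.20, ISG15 -0.25 to 0.054, RSAD2 -0.24 to 0.23 at 24 h; IFITM1 -0.086 to 0.29, IFITM3 -0.060 to 0.27, IRF3 -0.041 to 0.37, IRF7 -0.0098 to 0.16, ISG15 -0.22 to 0.27, ISG20 -0.12 to 0.18, PARP9 -0.16 to 0.22, SP110 -0.039 to 0.23 at 48 h; ISG15 -0.14 to 0.10, OAS3 -0.13 to 0.035, SAMD9 -0.044 to 0.10 over both times. The cause of these changes was not tested. Changes of the 11 members below the filter, USP18 included, are measured from levels under the filter on most or all arrays, so their sizes are uncertain.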
